A study of Mus musculus with 9 samples.

Results

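The T cell receptor complex of CD8+ T cells was described here at the level of RNA, through 10 genes chosen by name for their function out of 55471 gene identifiers in the count files. They encode the CD3 chains (Cd3d, Cd3e, Cd3g and Cd247), the CD8 coreceptor (Cd8a and Cd8b1), the kinases Lck and Zap70, the adaptor Lat, and Cd5, a surface inhibitor of receptor signalling. The choice was made with earlier results of these data known. All 10 genes passed the filter on low counts and were among the 14918 genes tested. The cells carried OT-I, a transgenic receptor that recognises an ovalbumin peptide.

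The 9 libraries came from day 7 after infection with LmOVA, a Listeria strain that makes ovalbumin. The control group (n = 4) had intact Bdh1 (Bdh1-WT) and a short hairpin RNA against firefly luciferase (shCtrl). The group called DKO (n = 5) was a Bdh1 knockout (Bdh1-KO) with a hairpin against Oxct1 (shOxct1), so that 2 enzymes of ketone body use were targeted together and their effects cannot be told apart. All cells had been stimulated in culture through CD3 epsilon and CD28 with IL2 for 24 h, transduced, sorted on the Ametrine reporter, moved into CD45.1 C57BL/6 mice 1 day before infection, and sorted again as CD45.2 and Ametrine positive cells. For all libraries the labels give IL2 at 50 U/mL and 2 days of culture after transduction. The labels do not say whether the libraries of a group came from separate mice, so p-values measure the spread between these libraries, which may in part be technical. The labels used here give neither age nor sex of the mice.

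As background, the alpha and beta chains of the receptor bind the antigen but have almost no cytoplasmic tail. Signals pass through the CD3 chains, whose tyrosine motifs are phosphorylated by Lck and then bind Zap70, which phosphorylates Lat. CD8 binds class I MHC molecules and brings Lck to the receptor. On conventional CD8+ T cells the coreceptor is mostly a pair of an alpha and a beta chain, while alpha can also pair with itself and beta needs alpha to reach the surface.

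The libraries held 45205993 to 59853080 counts in genes, and the lowest count of any member in any library was 10345, so depth did not limit the values. Control replicate 1 stood apart, with 16.7% of its reads unmapped against 10.3 to 12.3% in the other libraries, and it held the highest control value for 7 of the 10 genes. Control replicate 3 held the lowest control value for 9 of the 10. It also had the fewest genes detected (19629) and the most reads in no feature (5.2%) of all libraries. The targeted genes were lower in DKO: Oxct1 was at 63.2 ± 5.73 CPM (the count scaled to the library's effective size) in control and 5.16 ± 0.37 CPM in DKO, and Bdh1 at 30.5 ± 4.17 and 10.6 ± 1.24 CPM (SD, n = 4 and 5). The cells carried the RNA of their label: Trbv12, the V-beta family that OT-I cells use, held between 98.2 and 98.7% of V-beta counts, and Cd4 was at most 0.663 CPM in any library.

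Cd8b1 was the only member to pass the test over all genes, close to the threshold. In DKO this gene for the CD8 beta chain was at 75.8% of its control mean. Cd8a, the gene for the alpha chain, stood at 99.5% of its control mean. The CD3 chain genes were lower and Zap70, Lat and Cd5 higher in DKO on average, but none of these 7 passed the test over all genes.

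Cd8b1 (ENSMUSG00000053044.8, protein-coding, chromosome 6, plus strand, 71322788 to 71337494, build GRCm38) was at 2648, 2036, 2076 and 2227 CPM in control replicates 1 to 4. In DKO replicates 1 to 5 it was at 1550, 1788, 1580, 1755 and 1836 CPM. Every DKO library lay below every control library, and control replicate 1 was the highest. The means were 2247 ± 279.9 CPM in control and 1702 ± 128.7 CPM in DKO (SD, n = 4 and 5). On the log2 scale the difference was -0.40 with a standard error of 0.09. Its p, adjusted by Benjamini and Hochberg's method, was 0.0428 in edgeR's quasi-likelihood test. The exact permutation p (two-sided) was 0.0159, the smallest that these group sizes allow. Any gene whose groups do not overlap gets this exact p, Cd3e among them. Of the 10 members, 1 passed the edgeR test, and it was lower. Of all tested genes, 2.83% passed it (1.51% lower and 1.32% higher in DKO). The call of Cd8b1 lay close to the threshold. It was kept without control replicate 1 (log2 fold change -0.33, adjusted p 0.0189, edgeR) but was lost without any other library, with log2 fold changes of -0.44 to -0.37 and adjusted p of 0.0520 to 0.127 in edgeR.

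Cd8a (ENSMUSG00000053977.13, plus strand of chromosome 6, 71373427 to 71379173) lies 35932 bases from Cd8b1 on the same strand. Its levels were 797.5, 706.9, 663.2 and 709.5 CPM in control and 708.3, 695.2, 675.5, 757.1 and 741.7 CPM in DKO. The groups overlapped throughout, and the log2 difference was -0.01 with a standard error of 0.07 (adjusted p 0.973 by edgeR). Its sign was positive with 1 surrogate variable and without control replicate 1, DKO replicate 2 or DKO replicate 3, at sizes of 0.034 or less.

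The ratio of the coreceptor genes separated the groups. It contains the same Cd8b1 counts, so it is not a result separate from the lower Cd8b1 level. The ratio of Cd8b1 to Cd8a counts was 3.32, 2.88, 3.13 and 3.14 in control and 2.19, 2.57, 2.34, 2.32 and 2.48 in DKO. The ratios did not overlap, and unlike the level of Cd8b1 the ratio in control replicate 1 lay close to that of the other controls. Their means were 3.12 ± 0.181 in control and 2.38 ± 0.149 in DKO (SD, n = 4 and 5). The ratio is a description of counts, not of molecules, and the difference between the fold changes of the 2 genes was not tested.

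**Figure D1:**
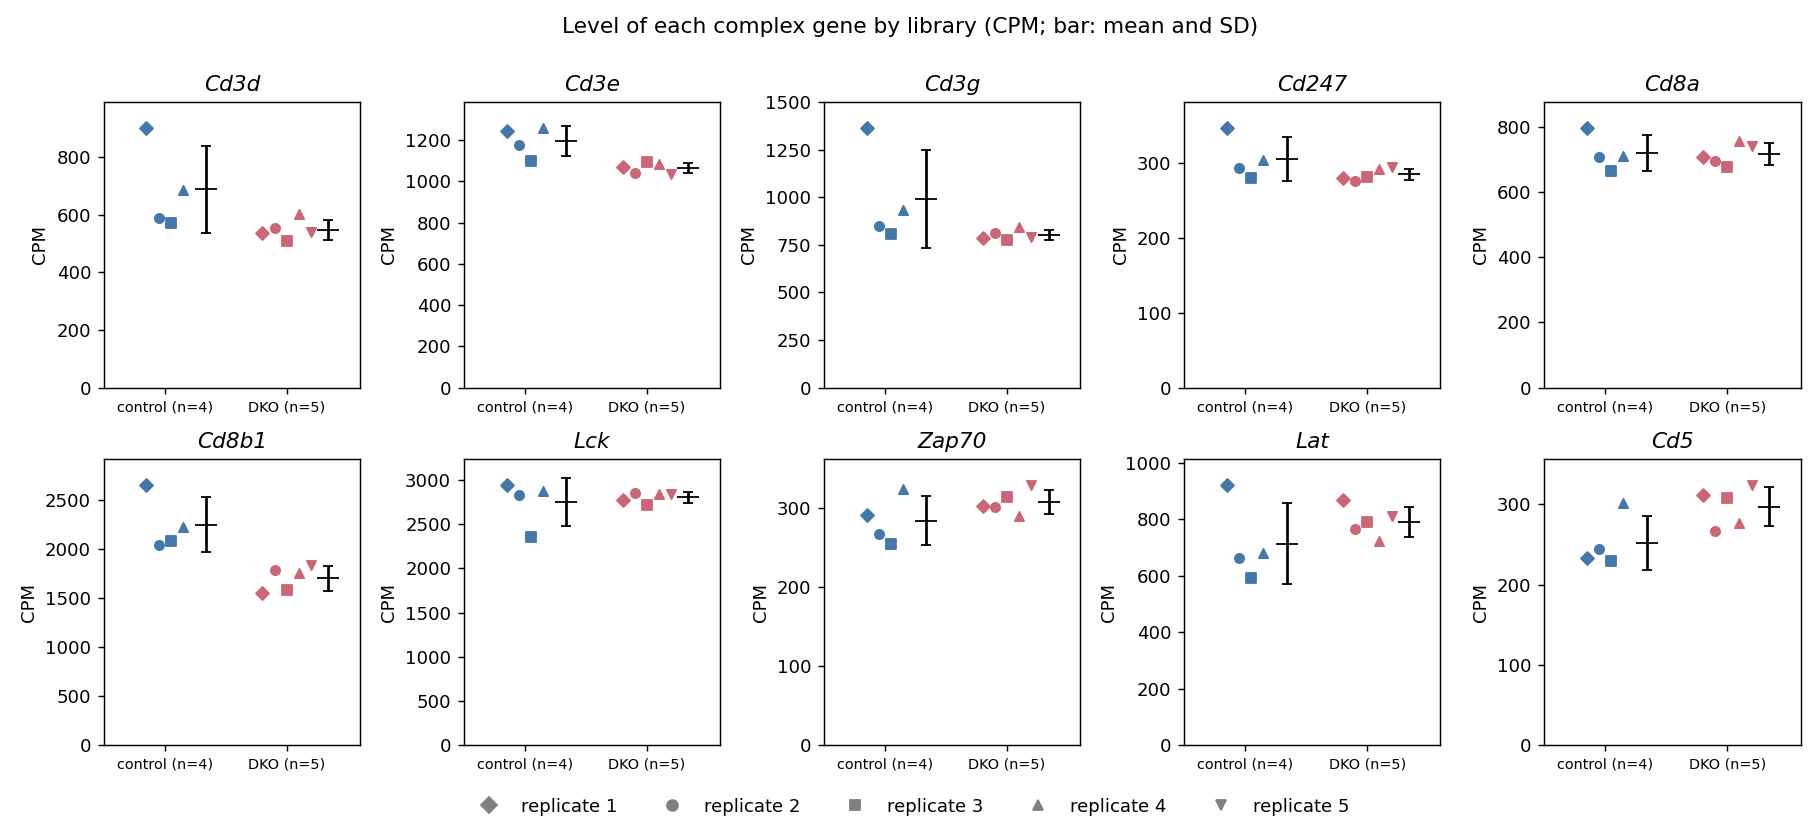
Level of each of the 10 genes in CPM (vertical axes, from 0) by group, with 1 point per library, its shape giving the replicate number, and bars for mean and SD. Cd8b1 lies at 1550 to 1836 CPM in DKO, below all control libraries, and control replicate 1 (diamond) lies well above the other controls for Cd3d, Cd3g and Lat.

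**Figure D2:**
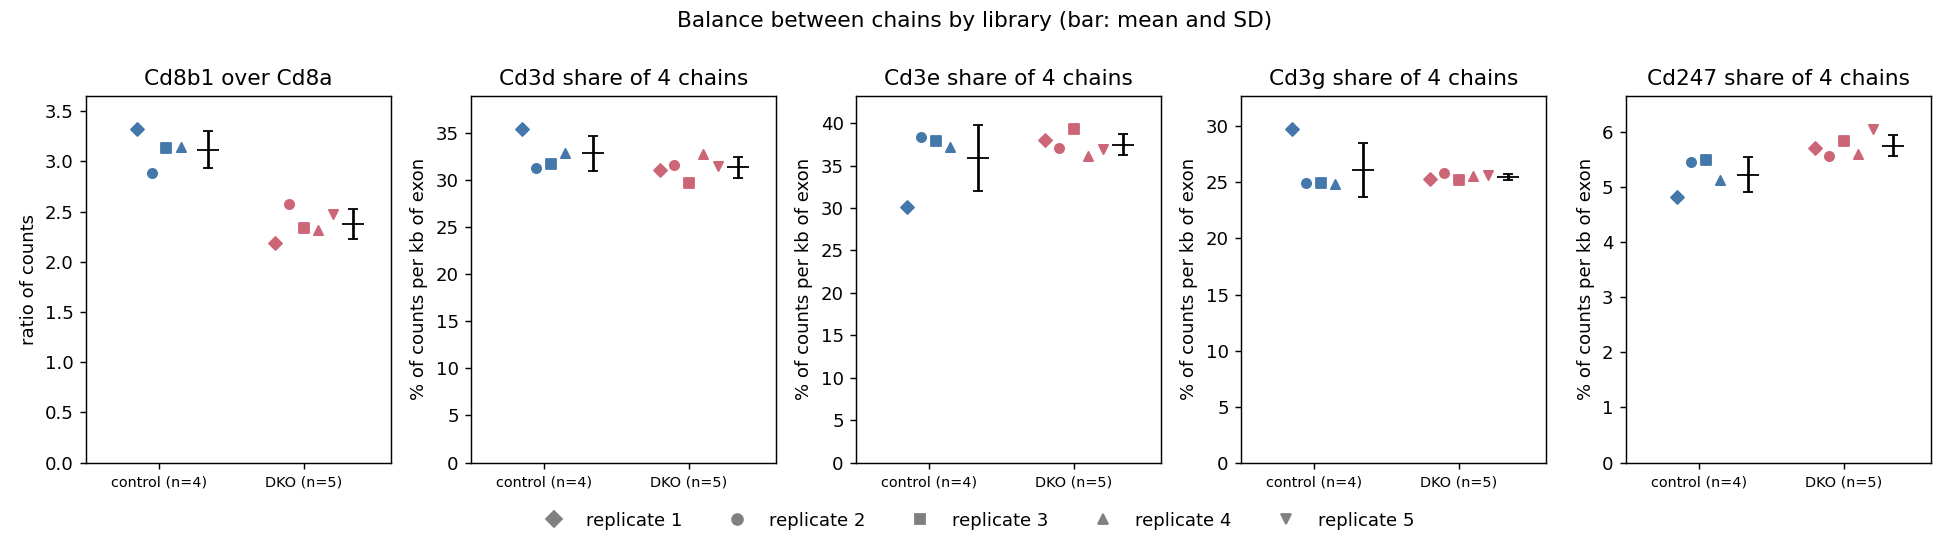
Ratio of Cd8b1 to Cd8a counts and the share of each CD3 chain gene in the sum of the 4, in % of counts per kilobase of exon (vertical axes, from 0), by group, with 1 point per library and bars for mean and SD. The Cd8b1 ratio lies at 2.88 to 3.32 in control and 2.19 to 2.57 in DKO.

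The CD3 delta, epsilon and gamma genes lie together on chromosome 9, and their products pair as delta with epsilon and gamma with epsilon. Cd3g (ENSMUSG00000002033.14, minus strand, 44969572 to 44980431) and Cd3d (ENSMUSG00000032094.8, plus strand, 44981786 to 44987339) start 1354 bases apart and are read away from each other. Cd3e (ENSMUSG00000032093.7, minus strand, 44998740 to 45009627) ends 11400 bases beyond Cd3d.

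Start regions are shown for these neighbours and for Cd8a, the coreceptor gene that did not pass the test. Each is 250 bases before and 50 bases after a RefSeq start (GRCm38.p6), written 5′ to 3′ on the strand of the gene. Capitals mark 3 words that factors active in T cells are known to recognise, on either strand and with overlaps merged: GGAAG for Ets factors, TGTGG for Runx factors, and CANNTG for E proteins. The windows are Cd3g (chr9:44980382-44980681, minus), Cd3d (chr9:44981536-44981835, plus), Cd3e (chr9:45009562-45009861, minus) and Cd8a (chr6:71373177-71373476, plus).
Cd3g: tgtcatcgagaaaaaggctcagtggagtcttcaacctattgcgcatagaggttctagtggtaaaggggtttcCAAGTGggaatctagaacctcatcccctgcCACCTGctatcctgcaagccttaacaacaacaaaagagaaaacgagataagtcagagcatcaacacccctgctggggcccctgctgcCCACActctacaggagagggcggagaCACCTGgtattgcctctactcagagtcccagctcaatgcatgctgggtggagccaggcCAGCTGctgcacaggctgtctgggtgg
Cd3d: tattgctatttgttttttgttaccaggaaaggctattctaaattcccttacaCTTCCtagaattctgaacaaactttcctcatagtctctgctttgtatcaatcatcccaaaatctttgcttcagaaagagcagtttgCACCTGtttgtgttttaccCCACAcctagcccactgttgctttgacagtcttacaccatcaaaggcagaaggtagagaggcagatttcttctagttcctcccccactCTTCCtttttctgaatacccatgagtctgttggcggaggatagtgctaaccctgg
Cd3e: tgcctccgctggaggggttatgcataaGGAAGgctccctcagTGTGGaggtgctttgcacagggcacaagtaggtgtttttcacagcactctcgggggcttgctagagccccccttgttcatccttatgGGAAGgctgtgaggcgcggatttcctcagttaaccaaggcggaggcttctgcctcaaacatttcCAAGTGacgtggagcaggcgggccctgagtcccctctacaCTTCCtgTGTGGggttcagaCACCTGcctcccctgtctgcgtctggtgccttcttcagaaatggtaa
Cd8a: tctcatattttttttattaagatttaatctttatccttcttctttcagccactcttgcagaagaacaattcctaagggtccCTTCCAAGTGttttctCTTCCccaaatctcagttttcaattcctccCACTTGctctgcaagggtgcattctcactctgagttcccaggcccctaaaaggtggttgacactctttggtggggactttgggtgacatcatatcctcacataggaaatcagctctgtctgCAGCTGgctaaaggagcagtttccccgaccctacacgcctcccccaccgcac
In these windows GGAAG was found 0, 2, 3 and 2 times in Cd3g, Cd3d, Cd3e and Cd8a, TGTGG 1, 1, 2 and 0 times, and CANNTG 4, 1, 2 and 3 times. Of 32851 windows of this length, 71.4% held GGAAG, 55.9% held TGTGG and 72.3% held CANNTG, so their presence is common. Of the 10 members, 9 (without Cd8b1) had 12 windows between them, of which 10 held GGAAG, 11 TGTGG and 12 CANNTG. A match to such a word is a description, not a binding site.

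Cd3d was at 901.6, 589.2, 570.2 and 686.8 CPM in control and 536.5, 553, 507.3, 601 and 539.9 CPM in DKO. Control replicate 1 was far above the rest, and DKO replicate 4 overlapped the controls. The log2 difference was -0.33 with a standard error of 0.12 (adjusted p 0.223 by edgeR), and -0.18 without control replicate 1 (adjusted p 0.187).

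Cd3g was at 1366, 847.5, 807.6 and 935 CPM in control and 786.1, 814.8, 777, 844.4 and 793.4 CPM in DKO. The pattern was that of Cd3d, with control replicate 1 highest and an overlap of the groups. Its log2 difference of -0.30, with a standard error of 0.14 (adjusted p 0.304 by edgeR), moved to -0.12 without that library (adjusted p 0.288). The ratio of Cd3g to Cd3d counts stayed between 1.36 and 1.53 in all 9 libraries, and the groups overlapped.

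Cd3e was at 1242, 1175, 1101 and 1261 CPM in control and 1069, 1040, 1092, 1082 and 1036 CPM in DKO. The groups did not overlap, though the lowest control and the highest DKO library were only 1101 and 1092 CPM. Its log2 difference was -0.17 with a standard error of 0.07 (adjusted p 0.240 by edgeR) and -0.16 without control replicate 1. Unlike Cd3d and Cd3g, its level in control replicate 1 lay within the range of the other controls. Added up, both strands gave 1.39 times the unstranded count of Cd3e, which shares 135 exonic bases with Gm48719 on the opposite strand, and with that sum the log2 difference was -0.18.

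Cd247 (ENSMUSG00000005763.15, chromosome 1, 165788681 to 165877277), the gene for the zeta chain, was at 346.9, 292.8, 279 and 303.2 CPM in control and 280.2, 275.9, 281.5, 291.1 and 294.1 CPM in DKO. Apart from control replicate 1 the groups covered nearly the same range. The log2 difference was -0.10 with a standard error of 0.08 (adjusted p 0.560 by edgeR) and -0.05 without that library. Of its exonic bases, 3213 overlap Gm16565 or, on the opposite strand, Pou2f1, so reads there cannot be told apart. Its share among the 4 chain genes, per kilobase of exon, was 4.81 to 5.49% in control and 5.55 to 6.04% in DKO, a narrow gap with no overlap. The shares of Cd3d, Cd3e and Cd3g overlapped between the groups. A share also depends on the other chain genes, and the level of Cd247 itself was not higher in DKO.

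Levels of different genes were compared per kilobase of exon, with the strand columns summed, which counts reads over the bases Cd3e shares with Gm48719 and may include reads of Gm48719. In control, Cd8b1 was highest at 1391 ± 175.8 CPM per kilobase, followed by Lck at 862.3 ± 83.7. Cd3e (372.9 ± 22.4), Cd3d (347.6 ± 77.5), Cd3g (277.9 ± 72.8) and Lat (237.2 ± 47.9) followed, and the mean ± SD ranges of neighbours in this order overlapped from Cd3e down to Cd8a. Cd8a (181.6 ± 14.5), Zap70 (87.0 ± 9.24), Cd247 (54.6 ± 5.36) and Cd5 (46.9 ± 6.17) closed the order, and the ranges of the last pair overlapped. In DKO, Lat stood above Cd3g and Cd5 above Cd247. The order depends on the length used. With the length of the principal transcript, Cd3e was at 1041 and Cd3g at 887.9 CPM per kilobase in control, and Lck (1177) exceeded Cd8b1 (1051) in DKO. With that length Cd247 (178.1) lay above Zap70 (116) in control. The exon length of Cd247 includes the bases it shares with other genes, so its level and share per kilobase may be too low.

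The kinases and the adaptor were next in the chain of signalling. Lck (ENSMUSG00000000409.14, chromosome 4, 129548344 to 129573641), the kinase bound to CD8, was at 2942, 2835, 2354 and 2875 CPM in control and 2775, 2859, 2714, 2846 and 2845 CPM in DKO. The DKO libraries lay within the control range. Its log2 difference was 0.03 with a standard error of 0.08 (adjusted p 0.888 by edgeR), and -0.04 without control replicate 3.

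Zap70 (ENSMUSG00000026117.10, chromosome 1, 36761798 to 36782818), the kinase that docks on phosphorylated CD3 chains, was at 290.4, 267, 253.6 and 323.3 CPM in control and 302.1, 300.5, 313.9, 289 and 328.3 CPM in DKO. The groups overlapped, with a log2 difference of 0.11 and a standard error of 0.08 (adjusted p 0.553 by edgeR). It was 0.06 without control replicate 3 and 0.18 without control replicate 4.

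Lat (ENSMUSG00000030742.7, chromosome 7, 126363824 to 126369570), the adaptor on which the signal branches, was at 921.5, 664, 593 and 680.1 CPM in control and 867.7, 765.6, 791.1, 723.3 and 811.8 CPM in DKO. Control replicate 1 was the highest library of all, while the other 3 controls lay below every DKO library. The log2 difference was 0.15 with a standard error of 0.12 (adjusted p 0.588 by edgeR). Without control replicate 1 it was 0.28 and passed the threshold (adjusted p 0.0407, edgeR), so the result for Lat depends on that library. Without control replicate 3 it was 0.07.

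Cd5 (ENSMUSG00000024669.8, chromosome 19, 10717116 to 10739002), whose level is known to follow the strength of receptor signals, was at 232.8, 244.1, 228.8 and 301.5 CPM in control and 311.1, 266.6, 307.3, 276 and 323.6 CPM in DKO. Control replicate 4 lay among the DKO libraries, and the other controls lay below them all. The log2 difference of 0.24, with a standard error of 0.10 (adjusted p 0.270 by edgeR), did not pass the threshold under any of the 18 alternatives, over which it ranged from 0.19 to 0.34.

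**Figure D3:**
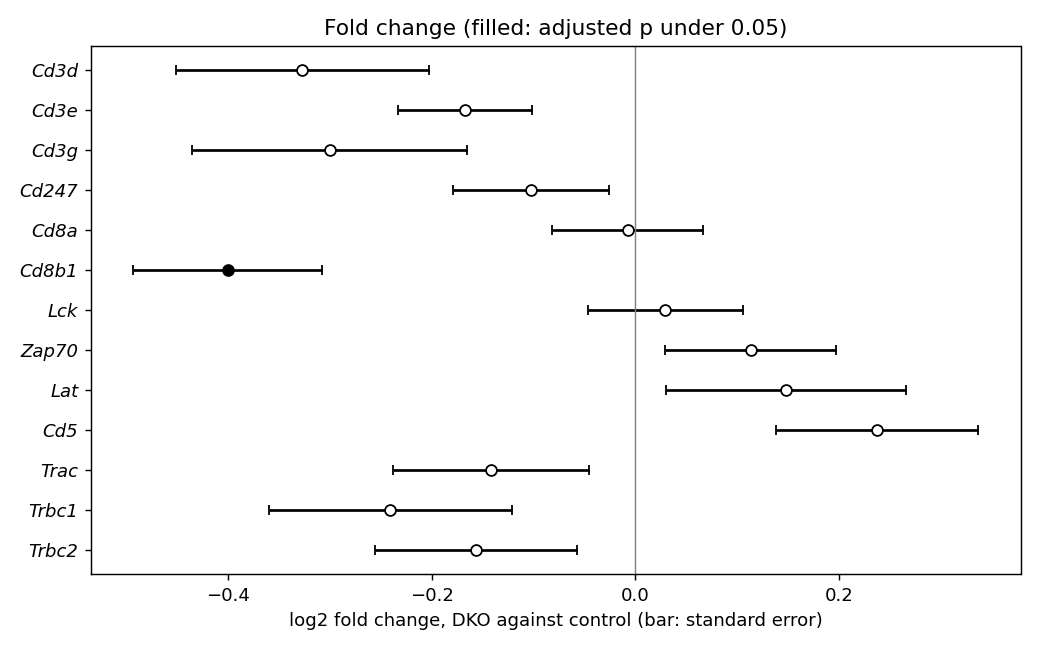
Log2 fold change of the 10 genes and the receptor constant genes in DKO against control (horizontal axis), with the standard error as bars and filled points for an adjusted p under 0.05. Cd8b1 at -0.40 is the filled point, and the CD3 chain and constant genes lie on the negative side.

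Over the 10 members, 6 were lower and 4 higher in DKO, with a median log2 fold change of -0.05 against -0.01 over all tested genes. Without control replicate 1, 5 were lower and 5 higher, with a median of -0.01. An unadjusted p under 0.05 was found for 5 of the 10 (Cd8b1, Cd3d, Cd3e and Cd3g lower, Cd5 higher), where 16% of all tested genes had one. With 1 library left out this count was 2 to 4, the lowest without DKO replicate 3 or 5. Groups without any overlap in CPM were seen for 2 of the 10, Cd8b1 and Cd3e, both lower, against 8.71% of all tested genes (4.09% lower and 4.62% higher in DKO).

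The receptor's own constant genes were also lower on average, and none of the 3 passed the test in edgeR or DESeq2 or had an unadjusted p under 0.05. Trac, the constant part of the alpha chain, was at 884.4 to 1250 CPM in control and 878.5 to 999 CPM in DKO, a log2 difference of -0.14 with a standard error of 0.10 (adjusted p 0.518 by edgeR). The beta constant genes Trbc1 (-0.24, adjusted p 0.357) and Trbc2 (-0.16, adjusted p 0.486) were also negative without passing the test. They are near-identical copies, so their values are uncertain. Control replicate 1 was the highest library for all 3 genes. Without it Trac was at -0.06 and Trbc1 at -0.11 on the log2 scale, and Trbc2 was at -0.10 without DKO replicate 3.

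Among 20 further kinases and adaptors close to the receptor, none passed the threshold in edgeR. In DKO 12 were higher and 8 lower (median log2 fold change 0.06). An unadjusted p under 0.05 was found for 6 of the 20, against 16% of all tested genes, and DESeq2 also called 0. The direction rested on control replicate 1, the lowest library for 10 of the 20 genes. Without it 9 were higher and 11 lower (median -0.01), and 9 had an unadjusted p under 0.05, where 19.95% of all genes tested without it had one. Fyb, an adaptor linking the receptor to the cytoskeleton, had the smallest of these p, at 197.1 to 249.2 CPM in control and 269 to 278.5 CPM in DKO (0.24 on the log2 scale, adjusted p 0.167 by edgeR). Control replicate 1 was the lowest library, the other controls were at 237.9 to 249.2 CPM, and without it the log2 difference was 0.15. Fyb shares exonic bases with Gm2245 and Gm7666, so part of its counts is uncertain. Grb2, an adaptor that binds Lat, had a log2 fold change of 0.19 (adjusted p 0.207), and the kinase Tec of -0.23 (adjusted p 0.216).

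Of 19 inhibitors of receptor signalling, none passed the threshold in edgeR, 13 were higher and 6 lower (median 0.11). An unadjusted p under 0.05 was found for 5 of the 19, against 16% of all tested genes. DESeq2 called 2, where it called 8.41% of the 12599 genes to which it gave an adjusted p. Without control replicate 1, the lowest library for 11 of the 19, 12 were higher and 7 lower (median 0.05). Then 6 had an unadjusted p under 0.05, against 19.95% of all genes tested without that library. Lax1, an adaptor that dampens signals from the receptor, came nearest, at 248.2 to 307.7 CPM in control and 210.5 to 231 CPM in DKO (-0.31 on the log2 scale, adjusted p 0.0616 by edgeR). Ubash3a, a suppressor of receptor signalling, was at 180.3 to 238.3 CPM in control and 258 to 281.8 CPM in DKO (0.30, adjusted p 0.105). The groups did not overlap for either gene. Both passed in the DESeq2 Wald test and without control replicate 1. Cd6, a surface relative of Cd5, differed by 0.36 on the log2 scale (adjusted p 0.137 by edgeR), with control replicate 4 at 525.5 CPM among DKO libraries of 481.8 to 618.2 CPM.

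Of 19 genes further downstream, none passed the threshold in edgeR, 15 were higher and 4 lower, with a median log2 fold change of 0.14. An unadjusted p under 0.05 was found for 4 of the 19, against 16% of all tested genes, and DESeq2 called 1, against 8.41%. The direction rested on control replicate 1, the lowest library for 14 of the 19. Without it 9 were higher and 10 lower, with a median of -0.02. In that fit 6 of the 19 had an unadjusted p under 0.05, against 19.95% of all genes tested. There 2 of the 19 passed the threshold in edgeR, Itpr1 and Prkcq, both lower in DKO, as did 749 of all 15185 genes tested. Bcl10, which links the receptor to NF-kB, was at 89.4 to 101 CPM in control and 106.7 to 114.6 CPM in DKO (0.20, adjusted p 0.177, edgeR). Stim1, a sensor of stored calcium, had a log2 fold change of 0.25 (adjusted p 0.244), and 0.14 without control replicate 1. Rasgrp1, an activator of Ras, had one of 0.40 (adjusted p 0.290). Its level in control replicate 1 was 138.7 CPM against 268.8 to 286.2 CPM in the other controls, and without that library the log2 fold change was 0.20.

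**Figure D4:**
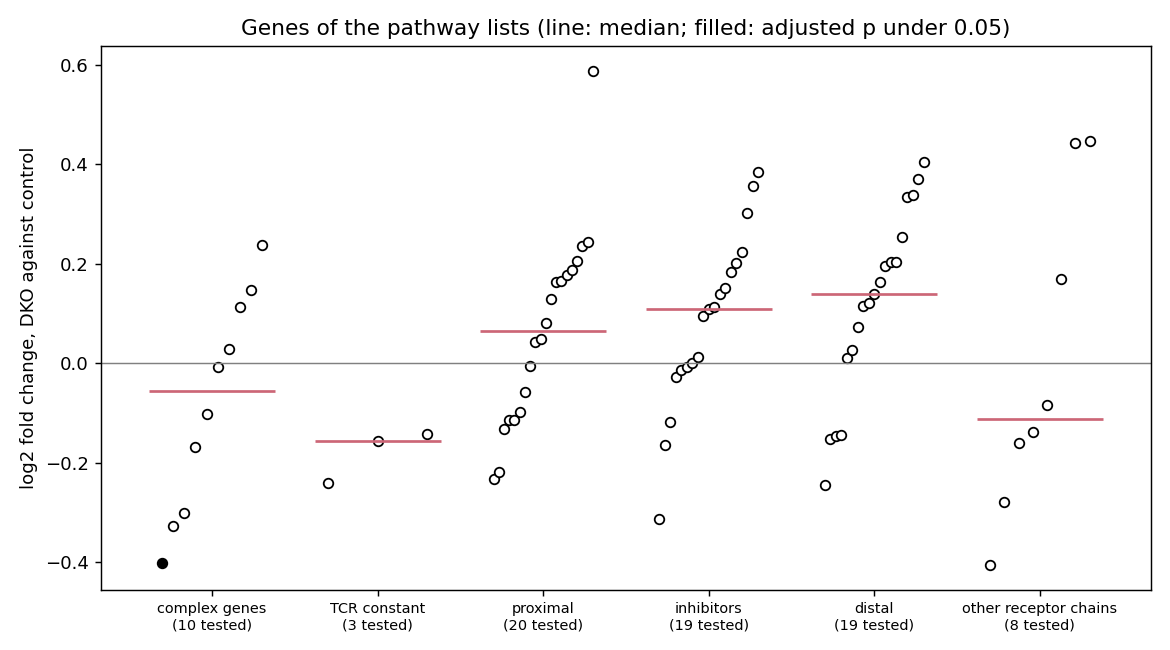
Log2 fold change in DKO against control (vertical axis) of the tested genes of the complex and of the 5 receptor and pathway lists, 1 point per gene, with the median as a line and filled points for an adjusted p under 0.05. Cd8b1 at -0.40 is the filled point among them, and the distal median of 0.14 was -0.02 without control replicate 1.

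Chains of other receptors were read as a check of the cells. Trdc, the constant gene of the delta chain, was at 311.2 to 470.3 CPM in control and 389.2 to 431.8 CPM in DKO (0.17 on the log2 scale, adjusted p 0.510 by edgeR). Its exons overlap Gm43434 and Trdv5 on the opposite strand, so reads there cannot be told apart. The other control libraries apart from replicate 1 lay at 311.2 to 341.2 CPM, and without replicate 1 Trdc passed the threshold (0.31, adjusted p 0.0145, edgeR). The gamma chain constant genes were far lower, Tcrg-C2 at 6.83 to 18.8 CPM, Tcrg-C4 at 1.25 to 2.67 CPM and Tcrg-C1 at 0.263 to 0.867 CPM. Ptcra, of the immature receptor, had 0 counts in every control library and at most 0.169 CPM in DKO. Fcer1g, an alternative signalling chain, and Syk, the relative of Zap70, were at 1.02 to 2.79 and 0.111 to 2.27 CPM, Tyrobp was at 2.05 to 3.98 CPM, and Hcst at 184.9 to 313.7 CPM. None of the 8 tested genes passed the threshold with all libraries in edgeR or DESeq2 (median -0.11, and 0.08 without control replicate 1), and 1, Tyrobp, had an unadjusted p under 0.05.

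Markers of other cells were summed in each library. The 8 myeloid genes summed to 130.8 to 161.7 CPM in control and 96.6 to 106.7 CPM in DKO. These sums did not overlap and went in the direction of Cd8b1, but single genes differed in direction. Most of this was Ctss (81.2 and 51.3 CPM on average) and Itgam (58.9 and 38.1 CPM), of which Ctss fell (-0.66 on the log2 scale, adjusted p 0.00734 by edgeR). Itgam shares 3450 exonic bases with Gm49368 on the same strand, so its counts are uncertain. Of the 7 myeloid genes tested, 3 were higher and 4 lower in DKO. The higher ones were Lyz2 (2.43 and 5.85 CPM on average), Csf1r (1.84 and 2.37 CPM) and C1qa (1.13 and 1.21 CPM). A mean above 1 CPM was found for 6 of the 8 genes. Csf3r was at 0 in every control library, and Cd14 was at most 0.534 CPM in any library. The 4 NK cell genes summed to 118.1 to 170.9 and 95.2 to 126.1 CPM, mostly Klrb1c and Eomes. Ncr1 was at most 0.248 CPM and Klra8 at most 1.46 CPM in any library. Eomes fell (-0.48 on the log2 scale, adjusted p 0.0497 by edgeR). The B cell genes (179 to 264 and 186.8 to 209.3 CPM), CD4 T cell genes (30.7 to 39.3 and 34.6 to 46.6 CPM) and erythroid and platelet genes (6.31 to 32.3 and 10.2 to 34.1 CPM) overlapped between the groups. Nearly all of the B cell sum was Ighm (208.7 and 188.3 CPM on average), while Pax5 was at 0 in all 9 libraries. The part of other cells in the result for Cd8b1 was not tested. In bulk RNA, fewer cells of a type and less RNA per cell cannot be told apart.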

How the data were processed

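RNA sequencing counts of 9 libraries were used, 4 control and 5 DKO, grouped by their titles. The authors deposited 1 file of whole-number counts per gene and library, not normalised, with the columns that STAR writes for gene counts. STAR 2.7.8a, Trim Galore 0.6.0 and the build mm10 are listed in the submitters' processing notes, and the annotation release is not given in the sources used here. PolyA RNA was extracted and libraries made with Takara Smartseq v4 and Nextera Flex, per the labels' protocols. The unstranded column was used, in which a read over genes of both strands is ambiguous. Reads in no feature (4.01 to 5.2%), ambiguous reads (4.97 to 5.31%) and multimapping reads (5.8 to 6.79%) were left out of library sizes.

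Identifiers were matched without version to GENCODE M21 (55230 of 55471). The test was the robust quasi-likelihood fit of edgeR 4.0.16 (R 4.3.3) after TMM scaling and filterByExpr with a minimum count of 10, with Benjamini-Hochberg adjustment over 14918 genes at 0.05. Exact permutation tests of single genes were two-sided and doubled the smaller tail. Alternatives were DESeq2 1.42.0 (size factors and Wald test), limma-voom (limma 3.58.1), no or a stricter filter, both strand columns added up, a block for the replicate number, a fit with 1 surrogate variable from sva 3.50.0, and each library left out in turn. Added after seeing the data were edgeR's newer quasi-likelihood fit and the length of the principal transcript. The fits were tested on simulated data. The first draw gave more false calls in edgeR than the limit set for it, so draws were pooled. Over these the rate of edgeR was close to the threshold. DESeq2 was run on fewer of the draws, so its higher rate cannot be set directly against that of edgeR. The simulated counts held no library that stood apart as control replicate 1 did. Members and lists were chosen with earlier results of these data known. Named genes were all members, the receptor constant genes, the targets, list genes past the threshold, the 3 smallest unadjusted p in each of 3 lists, and the other receptor chains. Sequences are from RefSeq (GRCm38.p6). Figures were drawn with matplotlib 3.10.9.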

Additional observations from a re-analysis of the deposited data

Results flagged for a closer look

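Among 66 groups of libraries, each a named gene in control or DKO, 4 held a library far from the others of its group, where chance alone marks about 1 in 20. Tec was at 41.6 CPM in control replicate 3, against 34.8 to 35.3 CPM in the other controls. Rasgrp1 was at 138.7 CPM in control replicate 1, against 268.8 to 286.2 CPM. Fcer1g was at 2.79 CPM in DKO replicate 1, against 1.23 to 1.47 CPM in the other DKO libraries. Syk was at 0.111 CPM in control replicate 3, against 1.16 to 1.34 CPM. None of the 4 was a member of the complex.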

How the results depend on the processing

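Cd8b1 was lower in DKO under all 18 alternatives (log2 fold change -0.44 to -0.33) and past the threshold under 9 of them. The number of members past the threshold, 1 with all libraries, was 3 with 1 surrogate variable (Cd8b1, Cd3d and Lat), 0 to 2 when a library was left out (2 without control replicate 1), and 0 with the replicate block. The number over all genes, 422, was 1059 in the DESeq2 Wald test, 1148 with 1 surrogate variable and 179 to 749 when a library was left out (749 without control replicate 1, 187 without control replicate 4, and 179 to 280 without a DKO library). The list counts, all 0, moved to 1 (Fyb) for the proximal list with 1 surrogate variable, and for the inhibitors to 2 in the DESeq2 Wald test, 1 with the stricter filter (Lax1), 3 with 1 surrogate variable, and 0 to 2 when a library was left out. For the distal list they moved to 1 in the DESeq2 Wald test (Bcl10), 5 with 1 surrogate variable and 0 to 2 when a library was left out (2 without control replicate 1), and for the other receptor chains to 1 (Trdc) with 1 surrogate variable and 0 to 1 when a library was left out. The causes were not tested.

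Among the named genes, signs turned only near 0 or at low counts. Other genes of the lists also changed sign, as the proximal and distal counts without control replicate 1 showed. On the log2 scale, Cd8a was at 0.034 with 1 surrogate variable and between -0.044 and 0.033 when a library was left out, and Lck between -0.038 and 0.053. Tcrg-C1 was at 0.051 with the block, 0.042 with 1 surrogate variable, and between -0.39 and 0.15 when a library was left out. Fcer1g was between -0.37 and 0.17 when a library was left out. Deviations of same-numbered libraries from their group means correlated at -0.05, -0.01, 0.01 and -0.12. These few values cannot decide whether replicate numbers pair the libraries. The number of control replicate 4 is that of its title, and its deposited file carries 5. Its place in the block and in these correlations is thus uncertain. With the replicate block, 67 genes passed over all genes, and Cd8b1 had a log2 fold change of -0.42 and an adjusted p of 0.197 in edgeR.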
